A study of Mus musculus with 28 samples.

Results

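DNase I hypersensitive sites (DHSs) that were present in both control cultures and in neither TGF-β + IL-4 culture of mouse CD4+ T cells are described here. They were chosen by the presence of a peak alone: the 4 deposited DHS lists were merged wherever peaks overlapped by at least 1 bp, and merged regions with a peak in the WT control list and in the KO control list and with none in the WT or KO TGF-β + IL-4 list were kept. The rule selected 2821 of 50176 merged regions, which are called members below. Of the 30251 regions present in both control lists, the members made up 9.33%. The rule used the readout itself, so the presence of a member in the controls and its absence from the TGF-β + IL-4 lists are no findings.

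The cells were naïve CD4+ CD62L+ T cells purified from spleen and lymph nodes of *Tgfbr1* f/f *ER*-*cre*+ mice on a C57BL/6 background, in a study that used both sexes at 8 to 10 weeks of age. By the labels of the DNase-seq libraries, mice had received oil (WT, floxed gene intact) or tamoxifen (KO). Tamoxifen activates the Cre recombinase in every cell that carries it, so *Tgfbr1* was not deleted in T cells alone. All cultures received anti-CD3 and anti-CD28 stimulation of the T cell receptor (TCR), the controls received medium, and the others TGF-β plus IL-4. DNase-seq gave 1 library for each of the 4 conditions, all labelled replicate 3, so no difference between DHS lists has a replicate check. Neither the labels nor the methods say how many mice a replicate number stands for. RNA-seq gave 24 libraries, 3 for each of 8 cultures (WT and KO with medium, TGF-β, IL-4 or both). The RNA labels say WT or KO and name neither oil nor tamoxifen. As the methods also list *Tgfbr1* f/f *Cd4*-*cre*+ mice, the mouse line of the RNA libraries is not certain.

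A DHS is a short stretch of chromatin that DNase I cuts readily, usually because transcription factors have displaced nucleosomes at a promoter, enhancer or insulator. TCR stimulation activates NFAT, NF-κB and AP-1, the last a dimer of Fos and Jun family proteins that often binds together with NFAT at enhancers of activated T cells. TGF-β signals through the receptor chains encoded by *Tgfbr1* and *Tgfbr2* to Smad proteins, IL-4 signals through STAT6, and both cytokines together direct naïve CD4+ T cells to the Th9 fate.

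The cells carried the marks of T cells. The 6 CD4 T cell markers had median levels between 40.5 and 300.0 RPKM (reads per kilobase of gene, scaled to library size) over the 24 RNA columns, and 4 of them (*Cd3e*, *Cd3g*, *Cd28* and *Cd5*) had a DHS within 1000 bp of a start in all 4 lists, while *Cd4* had none in any list and *Cd3d* had one in the WT control list alone. Of 10 markers of CD8 T, B, myeloid and NK cells, 7 had such a DHS in 0 lists, only *Cd8b1* had one in all 4, *Itgam* had one in the KO control list and the NK cell marker *Klrb1c* had one in both control lists alone, which is a member. The median levels of the 10 lay between 0.0597 and 18.9 RPKM. *Tgfbr1*, the targeted gene, ranged from 3.02 to 20.7 RPKM in the 12 columns headed WT and from 2.32 to 5.18 RPKM in the 12 headed KO, so the ranges overlapped. How deeply each DNase-seq library was sequenced is unknown, because the lists hold no read counts.

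The sequences of 8 members are shown to give the reader the letters at the centre of the strongest of them outside UTRs (the first 4) and of the strongest outside UTRs that lie nearest to genes of T cell lists (the last 4). The second strongest of all members lies in a UTR of *Ikzf3* and is not shown, so counts over these sequences leave out its AP-1 match. Each is 121 bases of the mm9 plus strand, centred on the WT control summit, the base at which the reads of the peak were densest. Capitals mark matches to the motifs searched.
Rasa1, chr13:85498863-85498983: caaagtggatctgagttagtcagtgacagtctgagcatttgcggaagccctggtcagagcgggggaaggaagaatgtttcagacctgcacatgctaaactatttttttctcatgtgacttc
Gm17350, chr8:130688981-130689101: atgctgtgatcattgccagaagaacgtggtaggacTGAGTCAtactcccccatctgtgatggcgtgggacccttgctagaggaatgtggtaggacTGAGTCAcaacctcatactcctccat
Gtdc1, chr2:44660152-44660272: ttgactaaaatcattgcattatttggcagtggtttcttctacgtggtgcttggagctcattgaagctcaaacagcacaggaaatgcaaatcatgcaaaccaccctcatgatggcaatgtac
Gm5148, chr3:37720247-37720367: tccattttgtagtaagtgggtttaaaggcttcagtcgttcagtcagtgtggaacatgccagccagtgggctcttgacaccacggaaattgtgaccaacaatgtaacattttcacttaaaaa
Foxo1, chr3:52046539-52046659: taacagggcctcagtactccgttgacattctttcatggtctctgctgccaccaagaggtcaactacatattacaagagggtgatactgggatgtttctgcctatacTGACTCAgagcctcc
Tgif1, chr17:71096232-71096352: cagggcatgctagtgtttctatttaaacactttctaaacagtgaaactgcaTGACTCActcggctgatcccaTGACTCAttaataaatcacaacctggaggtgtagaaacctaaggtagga
Dbp, chr7:52962324-52962444: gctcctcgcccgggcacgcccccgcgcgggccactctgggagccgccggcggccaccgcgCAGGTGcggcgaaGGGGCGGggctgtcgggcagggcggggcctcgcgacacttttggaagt
Jun, chr4:94702159-94702279: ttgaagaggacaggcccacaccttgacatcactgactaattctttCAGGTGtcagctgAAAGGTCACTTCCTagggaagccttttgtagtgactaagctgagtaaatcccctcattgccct

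The consensus of AP-1 (TGACTCA, on the other strand TGAGTCA) stood in 3 of the 8 sequences. It occurred at 2 places each in the member nearest to *Gm17350* and in the *Tgif1* member, and at 1 in the *Foxo1* member, 46 to 52 bp from the summit. The *Dbp* member carried an E protein match (CAGGTG) at its summit and an SP match (GGGGCGG). The *Jun* member carried an E protein match and, overlapping each other at its summit, matches to the NR4A motif (AAAGGTCA) and the ETS motif (AGGAAGT, read on the other strand). In 3 of the 8, those nearest to *Rasa1*, *Gtdc1* and *Gm5148*, none of the 23 motifs searched matched within these bases.

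The members were a large class among the 15 possible combinations of lists, and their number changed when the lists were made equally long. The WT control list held 44298 peaks, the KO control list 33665, the list of WT TGF-β + IL-4 33880 and that of KO TGF-β + IL-4 27145. Regions found in both TGF-β + IL-4 lists and in neither control, the mirror image of the members, numbered 239. When the strongest 27145 peaks were taken from every list, 963 regions met the rule and the mirror image rose to 771. The other 4 pairs of lists that exclude the remaining lists then numbered between 757 and 973, so that with lists of equal length the count of regions in both controls alone lay within the range of pairs that cross genotype and culture. Of the 963, 619 held the WT control peak of a member (64.3% of the equal-length set and 21.9% of the members).

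**Figure D1:**
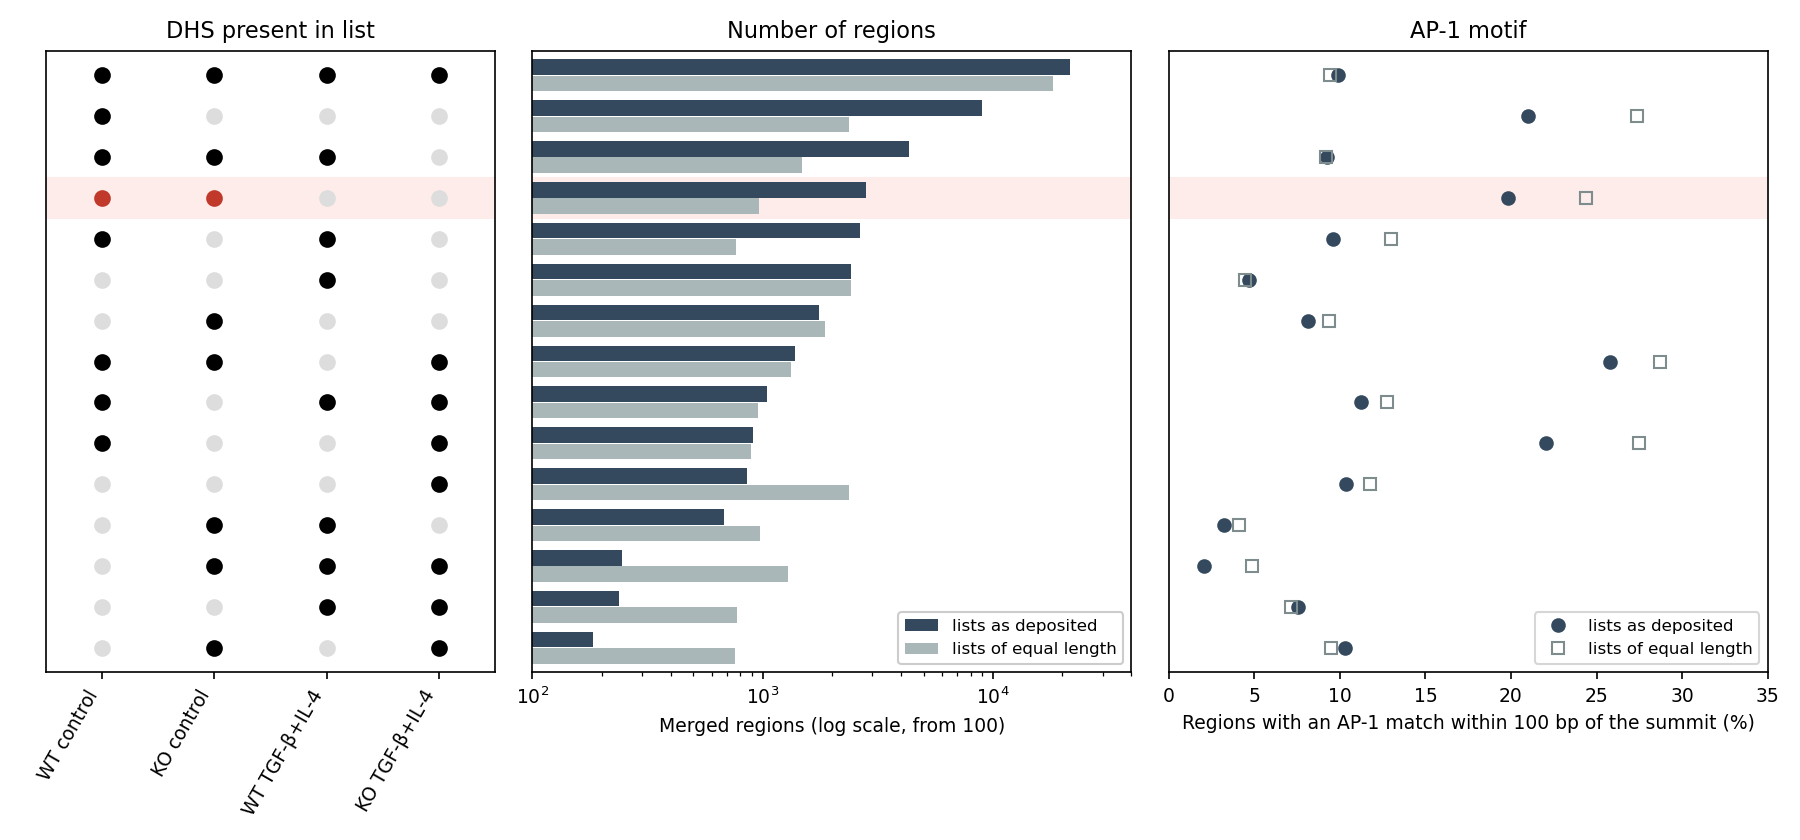
Merged regions by combination of lists: filled dots on the left mark the lists that hold a peak, with the members in red, bars give the number of regions on a log axis that starts at 100, and points on the right give the percentage with an AP-1 match within 100 bp of the summit, all with lists as deposited and with lists of equal length. The 2821 members fall to 963 with equal lengths while the mirror image (second row from the bottom) rises from 239 to 771, and the 4 combinations with the WT control and without WT TGF-β + IL-4 have the highest AP-1 shares.

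The members were weak to moderate peaks of their lists. Peaks were ranked within each list by −log10 p, with the strongest at percentile 100. The members had a median percentile of 31.1 in the WT control list (quartiles 16.9 and 46.2, highest 89.6) and of 19.3 in the KO control list (quartiles 8.99 and 31.9, highest 70.8), against medians of 74.98 and 67.4 for the 21699 regions found in all 4 lists. Fold enrichment over the background had a median of 4.77 (1.68 to 11.51) in the WT control and of 3.72 (1.497 to 7.04) in the KO control. Across members, the fold enrichments of the 2 controls had a Spearman rho of 0.44 (2821 regions of 1 library each, which share the genome sequence and the peak caller). Only 51 members stood at percentile 50 or above in both controls, 555 did so in the WT control list and 123 in the KO control list.

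**Figure D2:**
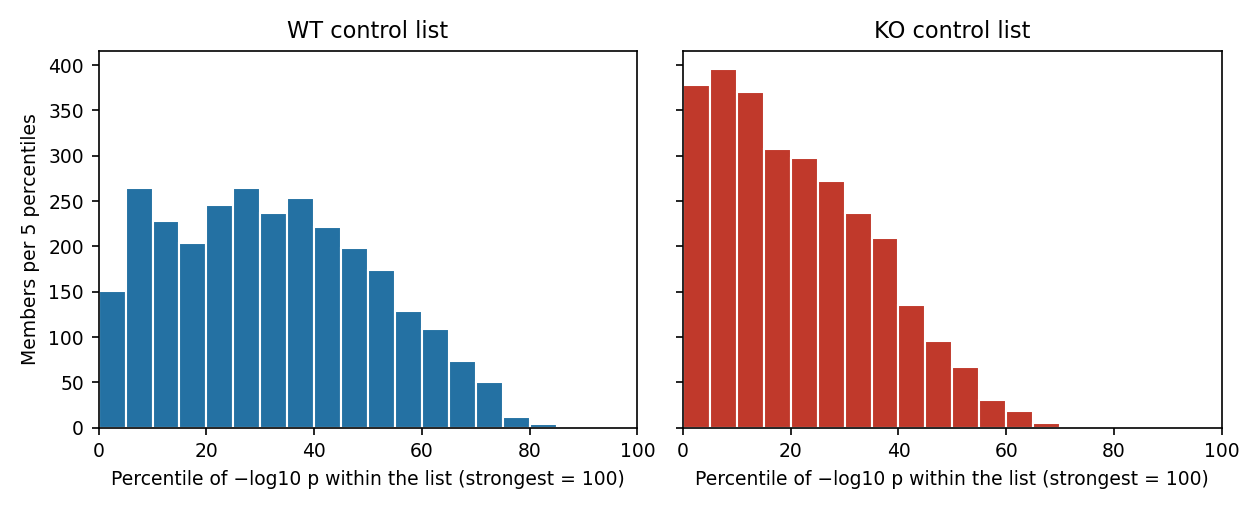
Number of members per 5 percentiles of −log10 p within the WT control list (left) and the KO control list (right), where 100 is the strongest peak of the list. Most members sit below percentile 50, and none lies above 90 in the WT control or above 75 in the KO control.

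The share of both-control regions that met the rule fell with strength. It was 36.3% up to percentile 20 of the WT control list (847 of 2335), 23.3% up to 40, 11.1% up to 60, 2.97% up to 80, and 0.0679% (6 of 8835) above 80. At the edge of the rule, the closest TGF-β + IL-4 peak to a member lay 1 bp away, 103 members (3.65%) had such a peak within 200 bp, and the median gap was 6335 bp. Among the 27430 both-control regions left out, the smallest overlap with a TGF-β + IL-4 peak was 2 bp, 3 overlapped by 50 bp or less, and in 97 (0.354%) the strongest TGF-β + IL-4 peak had a −log10 q under 3. Both control peaks of a member had nearly the same centre: the summits were a median of 26 bp apart, and 68.4% were within 50 bp. The merged regions were 201 to 1041 bp wide (median 324), and 7 of them held 3 peaks.

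Most members lay away from promoters. Within 1000 bp of an annotated transcript start stood 433 members (15.3%), whereas 1194 (42.3%) had their summit in an intron, 1095 (38.8%) between genes and 99 (3.51%) in an exon. Promoters made up 48.0% of the regions in all 4 lists, 19.2% of the mirror image and 11.6% of the 8931 regions found in the WT control list alone. The median distance to the nearest protein-coding start was 16006 bp for members and 3116 bp for regions in all 4 lists. The median GC content of the 201 bases around the summit was 48.8% in members, 55.2% in regions of all 4 lists and 50.2% in the mirror image. Positions were also read within strength. Promoters made up 20.2%, 15.2%, 12.9% and 6.50% of the members in successive bins of 20 percentiles of the WT control list up to percentile 80, against 34.4%, 29.6%, 28.8% and 36.9% of the regions in all 4 lists. Chromosome 11 held the most members (232 of 2515 both-control regions, 9.22%). Members were rarely close to each other, with 219 (7.76%) within 10000 bp of another member, and 1255 (44.5%) lay within 10000 bp of a DHS found in all 4 lists.

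**Figure D3:**
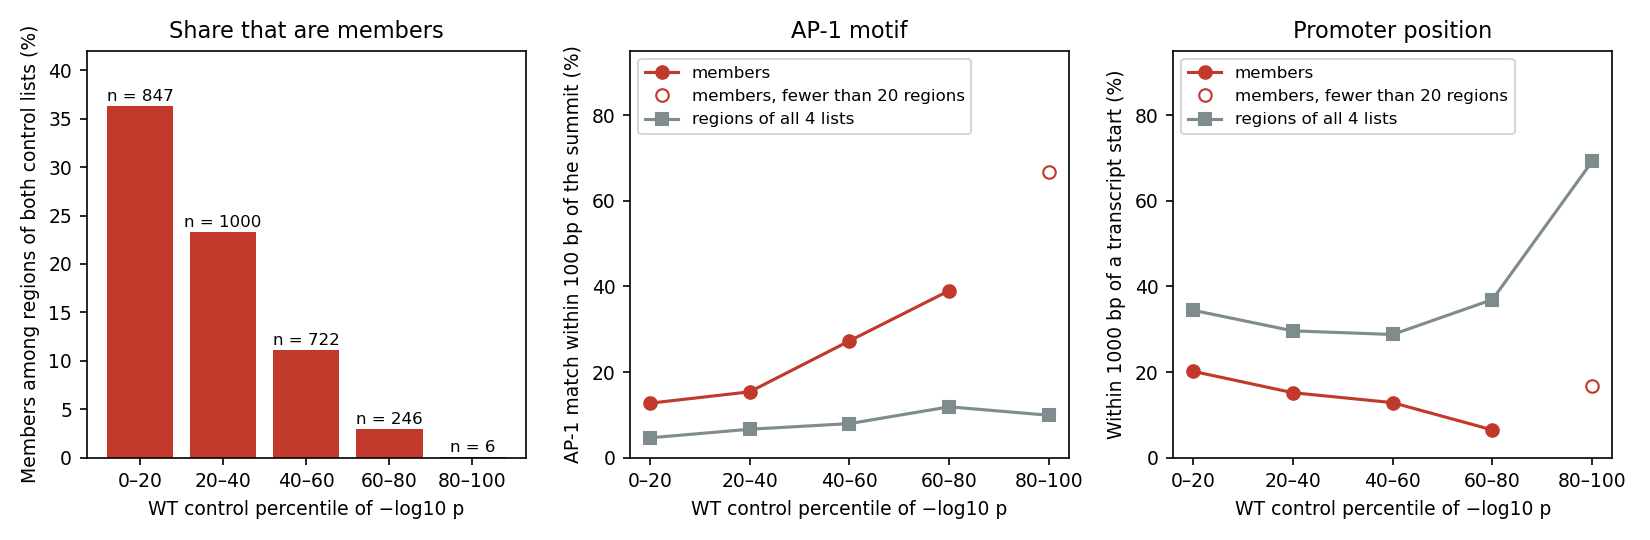
Regions of both control lists by bins of 20 percentiles of the WT control −log10 p: the percentage that are members with their number (left), the percentage with an AP-1 match (middle) and the percentage within 1000 bp of a transcript start (right), for members in red and regions of all 4 lists in grey. Members are more often AP-1 positive and less often promoters than regions of all 4 lists in each of the 4 lower bins, and the open circles stand for 6 members only.

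AP-1 was the commonest of the 23 motifs among the members. TGACTCA lay within 100 bp of the summit, on either strand, in 559 members (19.8%), in 9.88% of the regions in all 4 lists, in 7.53% of the mirror image and in 12.6% of all merged regions. The share rose with strength in the members, from 12.8% in the lowest 20 percentiles of the WT control list through 15.4% and 27.3% to 39.0% between percentiles 60 and 80, while it was 4.67%, 6.67%, 7.99% and 11.9% in the regions of all 4 lists in the same bins. Above percentile 80 stood 6 members, of which 4 had a match. Away from promoters the shares were 21.5% of members and 15.7% of regions in all 4 lists, and at promoters 10.6% and 3.53%. In windows of the same size centred 400 bp to either side of the summit the share was 3.42% for members and 2.88% for regions in all 4 lists, so the matches were concentrated at the summits.

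The AP-1 share was not particular to the members. Shares in the 4 combinations with a peak in the WT control but none in WT TGF-β + IL-4 were between 19.8% and 25.8%: the WT control alone had 21.01%, the members 19.8%, the WT control with a peak in KO TGF-β + IL-4 as well 22.03%, and both controls together with KO TGF-β + IL-4 25.8%. The other 11 combinations had shares between 2.04% and 11.3%. With lists of equal length the 4 had between 24.4% and 28.7% and the 11 between 4.11% and 12.98%, with no overlap in either form. Regions of both controls and WT TGF-β + IL-4 stood at 9.23%. These combinations come from the same 4 libraries, and the differences have no test.

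**Figure D4:**
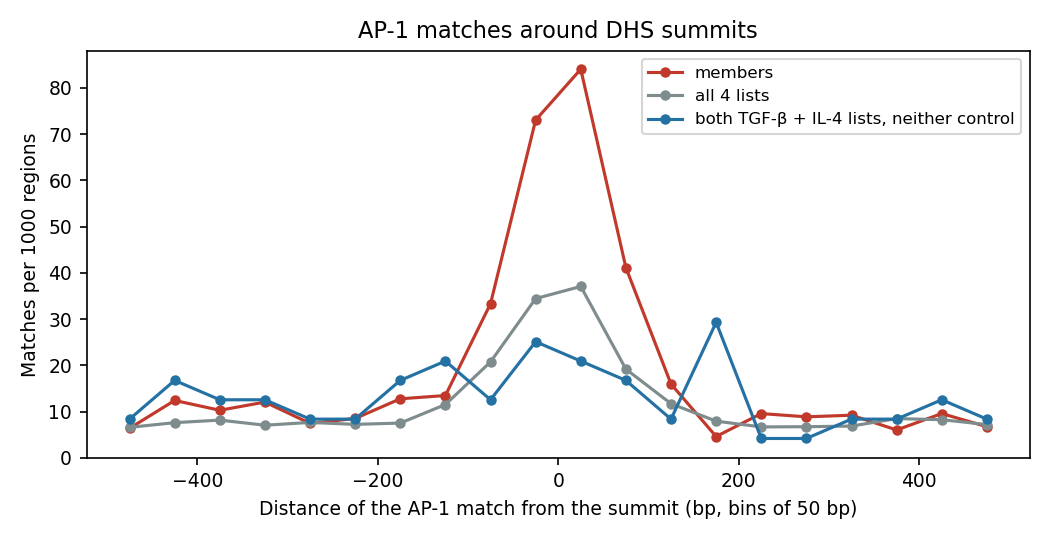
AP-1 matches per 1000 regions in bins of 50 bp by distance from the summit, for members, regions of all 4 lists and regions of both TGF-β + IL-4 lists alone. Members reach 73.0 and 84.0 matches per 1000 regions in the bins on either side of the summit, against 34.4 and 37.1 for regions of all 4 lists, and both fall to a like level beyond 150 bp. The third curve rests on 239 regions.

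Motifs of other TCR-responsive factors differed in direction between members and regions of all 4 lists. The NFAT motif (TTTTCCA) was found in 6.56% of members and 3.41% of regions in all 4 lists, and the motif of NR4A nuclear receptors (AAAGGTCA), encoded by immediate-early genes of TCR stimulation, in 2.52% and 1.20%. The EGR motif (GTGGGCG), bound by another family of immediate-early factors, was rarer in members (3.23% and 8.36%, away from promoters 2.18% and 4.16%). So was the CRE motif TGACGTCA (0.567% and 2.30%), and NF-κB shares were close (5.49% and 5.22%). These shares were not particular to the members. Regions of the WT control list alone had 6.94% for NFAT, 2.74% for NR4A, 2.42% for EGR and 0.515% for CRE. CTCF, the insulator protein, had matches in 8.76% of members and 6.45% of regions in all 4 lists, but away from promoters in 9.34% and 10.6%. By WT control percentile its shares were 13.2% of members and 11.6% of regions in all 4 lists between 20 and 40, 8.31% and 11.6% between 40 and 60, and 2.44% and 8.45% between 60 and 80. SP motifs (GGGGCGG) were found in 5.57% of members and 20.9% of regions in all 4 lists, but away from promoters in 3.43% and 5.88%. Regions of the WT control list alone had 4.05%. The STAT motif with a spacer of 4 bases (TTCNNNNGAA), the form that STAT6 prefers, was found in 3.72% of members, in 4.86% of regions in all 4 lists and in 22.6% of the mirror image. The DBP-type motif of PAR bZIP factors was rare everywhere, with 0.177% of members. A match describes the letters in the window and is not a measured binding site.

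The 12 strongest members, ranked by the lower of both control percentiles, were scattered over the genome. The first, chr13:85498710-85499382, lay between genes, 69832 bp upstream of *Rasa1*, a GTPase-activating protein for Ras, and stood at percentiles 72.7 in the WT control and 70.8 in the KO control. A member at chr11:98326394-98326723 lay in a UTR of *Ikzf3*, which encodes the lymphoid zinc finger protein Aiolos, although the nearest start was that of *Grb7*, 18415 bp away. It stood at 66.9 and 66.5 and held an AP-1 match. The peak with the highest WT control rank of all members (89.6, KO control 66.0) was at chr8:130688869-130689344, 181930 bp from the nearest protein-coding start, that of *Gm17350*.

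*Txk* and *Foxo1* were among the genes nearest to the same 12. A member in an intron of *Txk*, at chr5:73116680-73117039, stood at 67.2 and 58.0 with an AP-1 match. *Txk* encodes a Tec family kinase of T cells. The *Foxo1* member, chr3:52046419-52046746, lay 25660 bp upstream of the gene of this transcription factor, which keeps naïve T cells quiescent, and had percentiles of 62.7 and 61.2 with fold enrichments of 6.97 and 5.52. A pair of members (chr15:58580611-58581010 and chr15:58563449-58563855) lay in introns of *Fer1l6*, with percentiles of 70.3 and 60.5 and of 71.2 and 59.4. The member near *Gm10800*, chr2:98505154-98505372, ranked 58.9 and 64.1 by p with fold enrichments of only 2.53 and 2.50. The members nearest to *Wdr11* (172788 bp away, 74.5 and 57.6) and *Fbrs* (4641 bp upstream, 58.6 and 57.6) lay between genes and close the 12.

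The members had 2297 different nearest protein-coding genes, 1910 of them with 1 member and 27 with 4 or more. *Ets1*, an ETS family transcription factor of lymphocytes, had the most, with 8 members among 40 both-control regions nearest to it. *Myc*, the growth regulator induced by TCR stimulation, had 7 of 37, and *Prkcq*, the kinase that links the TCR to NF-κB and AP-1, 6 of 30. *Bcor*, a transcriptional corepressor, had 6 of 19 and *Sept9*, a septin of the cytoskeleton, 6 of 22. There were 5 members each at *Foxp1*, *Tgfbr2*, *Skap1*, *Cobll1*, *Lclat1*, *Phf15* and *Sh3kbp1*. Those of *Foxp1* were among 36 both-control regions and those of *Tgfbr2* among 24. *Skap1* encodes an adaptor that couples the TCR to integrins, and its 5 members were among 10 both-control regions. All 12 of these genes also had DHSs in all 4 lists nearest to them, from 2 at *Sh3kbp1* to 28 at *Ets1*. A gene far from its neighbours collects more regions as the nearest gene.

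Genes of the 10 T cell lists (139 genes) had 93 members, at 53 genes. These were 11.0% of the 849 both-control regions nearest to list genes, beside 9.33% over the genome. By list the share ran from 4.17% (2 of 48, cytokine signalling) and 6.88% (13 of 189, naïve and homing genes) to 17.2% (11 of 64, inhibitory receptors) and 17.4% (8 of 46, Th17 and Treg genes), on small numbers. The inhibitory receptor list and the Th17 and Treg list overlap, and the 3 members at *Ctla4* are counted in both. None of the 93 was nearest to *Il9*. AP-1 matches stood in 28 of the 93.

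Genes of the naïve and homing list had 13 members, 12 of them at genes of transcription and chromatin factors. *Foxp1*, which restrains activation of naïve T cells, had 5, all within introns and 17741 to 105804 bp from a start. The strongest (chr6:99234093-99234379) lay in an intron of another gene, *Eif4e3*, at percentiles 35.8 and 54.0 with an NFAT match. Those 74588 and 105804 bp from the start lay in *Eif4e3* as well. *Bach2*, a repressor that competes for AP-1 sites, had 3, of which 2 held the AP-1 motif. *Foxo1* and the chromatin organizer *Satb1* had 2 each and *Il6ra*, the IL-6 receptor, 1.

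Genes of the TGF-β pathway had 14 members, 12.1% of 116. Both receptor chains were among them. *Tgfbr2* had 5 members between 9829 and 144377 bp from a start, 2 of them with an AP-1 match. *Tgfbr1* had 1, in an intron at chr4:47412753-47412993, with percentiles of 18.01 in the WT control and 27.6 in the KO control. *Smad3*, the receptor-activated Smad, had 3 weak members with percentiles up to 50.3 in the WT control and 39.8 in the KO control. *Tgif1*, a corepressor of Smads, had 2, both AP-1 positive and in introns of another gene 99374 and 117419 bp away, the stronger at 81.0 and 50.3. *Skil*, *Pmepa1* and *Itgae*, which TGF-β induces, had 1 each. The *Itgae* member stood at 3.09 and 1.93 and was one of the weakest.

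Genes of T cell activation had 23 members at 12 of 25 genes, 13.3% of 173 both-control regions. Beside *Myc*, the AP-1 genes *Jun* and *Fos* had 2 each and *Fosl2* 1. The *Jun* member shown above (chr4:94702045-94702498) was the fourth strongest of the 93, at 71.7 and 43.1. *Cd44*, the adhesion receptor of activated cells, *Icos*, a costimulatory receptor, and *Csf2*, the cytokine GM-CSF, had 2 each, and *Cd28*, *Cd69*, *Egr2*, *Nr4a2* and *Nr4a3* 1 each. The *Nr4a3* member lay 245760 bp upstream of the start, at 74.3 in the WT control and 25.7 in the KO control.

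Lineage and effector genes carried single members in most cases. The *Dbp* member (chr7:52962243-52962526) lay in its coding sequence, 1390 bp into this gene of a circadian PAR bZIP factor, at 52.0 and 49.0. By fold enrichment (3.74 in the WT control and 3.28 in the KO control) it ranked lower, at percentiles 11.1 and 10.4. The *E2f8* member, near the gene of an atypical E2F repressor, was at chr7:56149554-56149797, 12740 bp upstream, at 13.7 and 46.1 with a CTCF match. Th9 list genes *Il9r*, *Irf4* and *Stat5b* had 1 each, and the whole Th9 list had 5 of 54 both-control regions (9.26%). Th1 genes had 9 members, 12% of 75 both-control regions. These lay nearest to *Ifng* (158753 bp away), *Il12rb2* (IL-12 receptor, 71.2 and 12.3), *Il18rap* (64.8 and 41.0), *Hlx*, *Ifngr1*, *Ifngr2*, *Runx3* and *Tbx21*, the Th1 master regulator. Th2 genes had 6 of 63 (9.52%), at *Gata3* (395681 bp away), *Il10*, *Ccr4* and *Ccr8*. Cytotoxic genes had 5 of 34 (14.7%). Of these genes, *Prf1* (perforin) had a member in its intron at 48.1 and 40.5, *Fasl* had 1 and *Xcl1* had 2. *Ccl4* had one 182 bp upstream of its start, at 33.6 in the WT control and only 0.212 in the KO control. Of the Th17 and Treg genes, *Rora*, which encodes a nuclear receptor of Th17 cells, and *Ctla4* had 3 each and *Ikzf2*, which encodes Helios, 2. The cytokine signalling genes *Il21r* and *Socs3* had 1 each. Genes of the inhibitory receptor list had 11: *Tox* 4, *Ctla4* and *Btla* 3 each and *Entpd1* 1.

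RNA of the nearest genes was a readout that the rule did not use. The nearest gene need not be the one that a DHS regulates, and in RNA of whole cultures fewer cells of a type and less RNA per cell cannot be told apart. Of the 2297 nearest genes, 2079 were in the RPKM table, and 1305 of these (62.8%) had a mean of at least 1 RPKM over the 24 columns, against 40.4% of all 24089 genes. Among genes at this level, the median was 9.93 RPKM for nearest genes and 11.9 RPKM for all.

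The comparison of TGF-β + IL-4 with control by the columns as headed called no gene. limma on log2(RPKM + 1), with thresholds of 0.01 for the adjusted p and of 1.5 for the fold change, called 0 of 9780 genes in WT (61 at an unadjusted p under 0.05) and 0 of 9573 in KO (887), which is 0% in both, and 0 of the 1300 and 1278 nearest genes tested. No other tool was run. Earlier work on these data had found the column headings in conflict with read counts of 8 WT libraries that accompany the study. Those counts, at hand for 1991 to 3821 genes of the table, were compared with each column by which genes stood at 0. Only 2 of the 8 libraries matched the column of their own heading, and 6 matched a column headed otherwise, with at least 99.8% agreement and at most 85.8% for the next best column. The values that follow come from the 4 columns identified in this way as WT control and WT TGF-β + IL-4, replicates 1 and 3 of each (n = 2 against 2). The KO columns had no such check, and whether their headings hold was not tested.

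In these libraries 147 of 1313 nearest genes tested were higher with TGF-β + IL-4 (11.2%, beside 6.66% of all 9825 genes) and 58 were lower (4.42%, beside 3.36%). The genes nearest to the mirror image had 21.97% higher and 1.52% lower (132 tested), those nearest to regions of all 4 lists 6.64% and 3.02%, and those nearest to regions of the WT control list alone 9.93% and 4.06%. The median log2 change was 0.08 for nearest genes of members and 0.01 for all genes. The share of the members' nearest genes called lower was close to that of all genes. In every group most genes tested were called in neither direction. AP-1 matches stood in 24.1% of the 199 members nearest to higher genes, in 16.9% of the 77 nearest to lower genes and in 20.9% of the 1404 nearest to genes tested and not called.

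The nearest genes with the strongest changes rose in 8 of 10 cases. Rises were also the commoner calls among all nearest genes (147 higher, 58 lower) and among all genes (654 higher, 330 lower). *Gsta4*, a glutathione transferase, measured 0.718 and 0.845 RPKM in the control libraries and 18.8 and 19.3 RPKM with TGF-β + IL-4, a log2 change of 3.49 ± 0.10 (SE, n = 2 and 2, limma adjusted p = 3.8e-08). *Fbxo2*, a ubiquitin ligase subunit, rose from 0.218 and 0.281 to 13.02 and 12.4 RPKM. The regions nearest to it included 2 members (7865 and 10238 bp from the start). In both genes the libraries of the cultures were far apart.

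The receptor genes rose together. *Tgfbr1* measured 3.02 and 3.31 RPKM in the controls and 17.6 and 20.7 with TGF-β + IL-4 (log2 change 2.27 ± 0.10, adjusted p = 7.2e-07). *Tgfbr2* measured 10.1 and 9.47 against 20.4 and 24.1 RPKM (1.10 ± 0.10, adjusted p = 3.8e-05). *Itgae*, the integrin chain CD103, rose by a log2 change of 2.79 and *Ccr8*, a chemokine receptor of Th2 cells, by 2.68. *Capg*, *Emp1* and *Prnp* had log2 changes of 2.22, 1.94 and 1.88. The *Capg* member lay 133 bp from a start, at percentiles 28.6 in the WT control and 10.8 in the KO control.

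The genes that fell among the 10 were *Nrn1* and *Plaur*. *Nrn1*, the neuronal growth protein neuritin, had 4 members among its 8 both-control regions and fell from 33.8 and 29.9 to 3.55 and 3.59 RPKM (log2 change −2.84 ± 0.09, adjusted p = 8e-08). Its members stood 1887 to 282052 bp from the start, and none held an AP-1 match. *Plaur*, the urokinase receptor, fell from 13.03 and 13.9 to 1.81 and 1.57 RPKM, with a member 931 bp upstream of its start. That member was weak, at percentiles 8.36 in the WT control and 24.3 in the KO control.

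Among the list genes with a member, 45 were tested, of which 16 rose and 8 fell. Over all 116 list genes tested, with or without a member, 37 rose and 18 fell. Of the 7 TGF-β pathway genes with a member, 5 rose (*Tgfbr1*, *Tgfbr2*, *Itgae*, *Skil* and *Pmepa1*), beside 7 of all 13 tested genes of this list. *Smad3* measured 3.31 and 3.06 against 4.41 and 5.24 RPKM and *Tgif1* 17.9 and 21.1 against 21.8 and 20.3 RPKM, and neither passed. Cytotoxic genes with a member fell in 3 of 4 cases, beside 5 of all 9 tested: *Prf1* went from 11.5 and 12.5 to 3.46 and 3.16 RPKM (−1.59 ± 0.10, adjusted p = 4.4e-06), *Ccl4* by a log2 change of −1.47 and *Fasl*, the Fas ligand, by −0.96. *Xcl1* had 308 and 345 against 316 and 311 RPKM. The summed level of the NK cell markers *Klrb1c* and *Ncr1* was 2.30 and 2.11 RPKM in the controls and 1.51 and 2.03 RPKM with TGF-β + IL-4, that of both CD8 T cell markers 26.3 and 26.9 against 25.3 and 26.6 RPKM, that of the 3 B cell markers 13.6 and 10.1 against 16.97 and 11.9 RPKM and that of the 3 myeloid markers 4.36 and 3.24 against 16.01 and 6.66 RPKM, and *Csf1r* was near 0 in all 4 libraries. The part of other cell types in these changes was not tested.

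Activation genes went both ways. *Jun* rose from 22.2 and 21.5 to 46.2 and 49.6 RPKM (1.10 ± 0.07, adjusted p = 7.2e-06), *Cd44* by 0.67 and *Egr2* by 0.60 on the log2 scale, while *Nr4a2* fell from 16.9 and 18.5 to 7.84 and 7.84 RPKM (−1.08 ± 0.09, adjusted p = 2.3e-05), *Csf2* by a log2 change of −0.95 and *Cd28* by −0.65. The calls of *Egr2*, *Csf2* and *Cd28* were lost when 1 library was left out (*Egr2* without control replicate 1 or TGF-β + IL-4 replicate 1, at 0.55 and 0.57, *Csf2* without control replicate 3, at −0.85, and *Cd28* without TGF-β + IL-4 replicate 1, at −0.55). *Myc* measured 296 and 309 against 220 and 227 RPKM, and *Fos* 4.69 and 4.45 against 2.73 and 2.86 RPKM, with adjusted p of 0.001 and 0.0022 by limma and changes under the fold threshold.

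Of the lineage genes, *Ifng* fell from 63.1 and 60.3 to 30.4 and 25.5 RPKM (−1.12 ± 0.09, adjusted p = 2e-05) and *Il12rb2* by a log2 change of −0.85, whereas *Ifngr2* rose by 0.68. *Ccr4* rose by 1.80. *Dbp* rose from 2.63 and 2.29 to 8.01 and 9.72 RPKM (1.51 ± 0.11, adjusted p = 1.6e-05), *Stat5b* by 1.08 and *Irf4* by 0.72. *E2f8* measured 6.66 and 6.37 against 5.01 and 4.62 RPKM (−0.37 ± 0.10, adjusted p = 0.014) and did not pass. *Foxo1* rose from 4.28 and 4.99 to 8.79 and 9.66 RPKM (0.86 ± 0.10, adjusted p = 0.00024) and *Il6ra* by 1.30. *Foxp1* and *Bach2*, with 5 and 3 members, had log2 changes of 0.32 and 0.29 and did not pass.

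**Figure D5:**
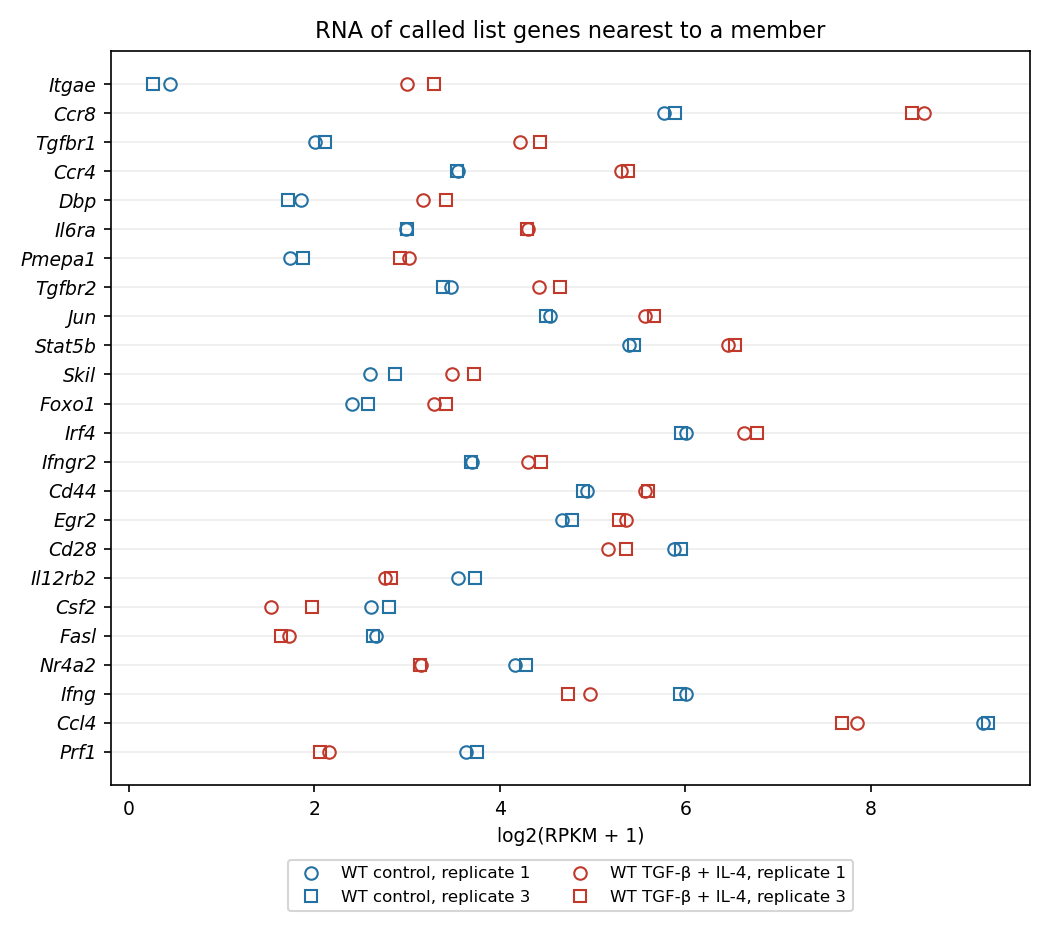
RNA level, log2(RPKM + 1), of the 24 list genes with a member that passed the test, in the 4 identified WT libraries (blue, control; red, TGF-β + IL-4; circles, replicate 1; squares, replicate 3). The libraries of both cultures are apart in each gene, with 16 genes higher and 8 lower with TGF-β + IL-4.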

How the data were processed

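The authors aligned DNase-seq and RNA-seq reads to mm9 with Bowtie2, removed redundant reads and those with MAPQ up to 10, and ran MACS2 for narrow peaks on each DNase-seq library alone. The deposited peak lists give fold enrichment (a ratio over background), −log10 p, −log10 q and the summit offset; the deposited RNA table gives RPKM for 24089 genes in 24 columns. Versions of these tools are not given in the sources used here. DNase-seq depth is unknown and RPKM are not counts.

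Members and gene lists were chosen with earlier results of these data known. Positions and nearest protein-coding starts are from the GENCODE annotation of the same build. The 23 motifs were searched within 100 bp of summits on both strands. limma 3.58.1 in R 4.3.3 (trend, mean RPKM of at least 1, Benjamini-Hochberg) was run on log2(RPKM + 1), a scale that understates changes of low genes; it and the merging were tested on simulated data. The text names the 12 strongest members, the genes with most members, list genes with a member and the 10 called nearest genes with the largest change. WT columns were also identified by matching genes at 0 to read counts that accompany the study, used for nothing else. Nothing in the labels or methods ties a replicate number to a mouse, so p-values measure only the spread between these samples, which may be technical. Python 3.11.15, pandas 2.3.3, pysam 0.24.0 and samtools 1.23.1 were used.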

Additional observations from a re-analysis of the deposited data

How the results depend on the processing

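The count of 2821 members stayed within 1.5 times with peaks overlapping by 50% of their lengths, with summits within 100 bp, on merging over 200 bp gaps and with −log10 q of at least 5 in all lists (2442 to 3251). It was 1609 with −log10 q of at least 5 in the control lists only and 963 with lists of equal length. The mirror image (239) was 440 with 50% overlap, 690 with summits within 100 bp and 771 with lists of equal length. The AP-1 share of members was 14.1% within 50 bp of the summit, 18.3% for members by summits within 100 bp and 24.4% with equal lengths, and that of the mirror image was 11.8% with 50% overlap. The STAT share with a 4-base spacer was 1.70% within 50 bp. Promoters made up 24.2% of members within 2500 bp of a start and 11.6% within 1000 bp of protein-coding starts. Ranked by fold enrichment, the median member percentiles were 33.5 (WT control) and 22.7 (KO control).

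The columns as headed mixed cultures in WT and were not checked in KO. With them, nearest genes called stayed at 0 in both genotypes and directions under every alternative, the replicate block included. The exception was WT without replicate 2 (range over left-out replicates 0 to 1, higher). With libraries identified by read counts, nearest genes called were 147 higher and 58 lower. In those libraries the counts ran from 123 to 166 higher and from 46 to 73 lower over the replicate block (150 and 60), 50 kb, adjusted p under 0.05 and left-out libraries, where the lone library of a culture is assumed to vary like the others. Nothing shows that the replicate numbers pair the libraries: in the identified libraries, the difference between replicates 1 and 3 in control and that in TGF-β + IL-4 correlated at 0.09 over 9825 genes. Of 260 refits of 52 named genes, 253 kept direction and call, 4 lost the call and 3 changed sign in genes that were not called (*Tgif1* −0.0041, *Nr4a3* −0.051 and *Xcl1* 0.027). Unknown DNase-seq depth limits every count of absent DHSs.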
